A study of Rattus norvegicus with 8 samples.

Results

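The genes described here were the subunits of the transcription factor NF-κB and the proteins that hold it in check: *Nfkb1*, *Nfkb2*, *Rel*, *Rela* and *Relb*, the inhibitors *Nfkbia*, *Nfkbib* and *Nfkbie*, the feedback enzyme *Tnfaip3* and the kinase *Ikbkb*. They were chosen by name from the gene symbols of the deposited comparison, and their counts were read by Ensembl identifier. All 10 passed the filter on low counts, out of 13253 genes tested. RNA-seq had been performed on primary nucleus pulposus (NP) cells, which fill the soft centre of the spinal disc, isolated from adult Sprague Dawley rats. Sirt6-KD cells (genotype SIRT6KD/ShSirt6, libraries S5 to S8) were transduced with lentivirus carrying a mixture of ShRNA clones against *Sirt6*, which encodes a nuclear deacetylase. Sirt6-Ctrl cells (SIRT6Ctrl/ShCtrl, libraries S1 to S4) received control lentivirus, so both groups carried a viral vector and both were placed in puromycin in DMEM with FBS. The methods place a period of low oxygen before protein extraction and do not state it for RNA. The comparison asked how the transcripts of NP cells change when SIRT6 is depleted, with 4 libraries in each group.

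NF-κB works as pairs of Rel-family proteins that sit in the cytoplasm bound to IκB inhibitors. Cytokine, Toll-like and stress receptors activate the IKK kinase, which marks IκB for destruction and lets the pair enter the nucleus and bind κB sites. Among the genes it is known to activate are those of its own inhibitors, which makes the response self-limiting, and in the disc the pathway is known for driving cytokine and matrix protease expression.

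The κB sites near the starts of these genes are shown first. RefSeq start windows (GRCr8, 250 bases before to 50 after each gene start) were given for 8 of the 10 genes; *Relb* and *Ikbkb* had no entry. The 10-letter κB consensus, searched on both strands with overlapping matches counted as 1 site, lay in 6 of these 8 windows, against 2515 of all 33469 windows (7.51%), and in neither the *Rela* nor the *Nfkbib* window. The *Tnfaip3* window held 3 sites, a number reached by 18 windows in all (0.0538%). For *Nfkbia* (chr6:78597073-78597322, strand minus) and *Tnfaip3* (chr1:15543980-15544229, strand minus) the 250 bases before the start are printed 5′ to 3′ on the strand of the gene, with each consensus match in capitals.
Nfkbia: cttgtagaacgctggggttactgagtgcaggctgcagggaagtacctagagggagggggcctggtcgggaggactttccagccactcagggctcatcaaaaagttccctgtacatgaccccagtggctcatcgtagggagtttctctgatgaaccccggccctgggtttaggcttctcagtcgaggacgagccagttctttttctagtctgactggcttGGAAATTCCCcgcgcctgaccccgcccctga
Tnfaip3: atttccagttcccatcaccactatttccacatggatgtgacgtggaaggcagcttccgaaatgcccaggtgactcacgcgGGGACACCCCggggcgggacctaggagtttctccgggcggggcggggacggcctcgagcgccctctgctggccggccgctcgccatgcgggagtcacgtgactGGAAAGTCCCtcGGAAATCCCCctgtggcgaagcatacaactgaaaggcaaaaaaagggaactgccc
The *Nfkbia* match occupied bases -31 to -22 and read GGGAATTTCC on the opposite strand. The *Tnfaip3* matches occupied -170 to -161, -67 to -58 and -55 to -46. The same letters as in *Nfkbia* lay at 4 to 13 in *Nfkb1*, on the strand of the gene. The sites of the other subunit and inhibitor genes are given with 10 bases on either side, for *Nfkb1* at chr2:226805440-226805469 (minus strand), *Nfkb2* at chr1:255108344-255108373 (plus strand) and *Nfkbie* at chr9:22948017-22948046 (minus strand).
Nfkb1: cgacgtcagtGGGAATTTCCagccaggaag
Nfkb2: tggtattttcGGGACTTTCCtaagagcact
Nfkbie: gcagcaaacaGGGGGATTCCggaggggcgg
*Rel* held 2 sites, one of which read GGGAAATCCC. Sites lay in *Nfkb1*, *Nfkbia* and *Tnfaip3*, which rose in Sirt6-KD cells. They also lay in *Nfkb2*, *Rel* and *Nfkbie*, which did not pass the limits for a change given below. The part of these sites in the changes was not tested. A match describes these letters only, and binding was not measured here.

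*Sirt6* itself (ENSRNOG00000006393) fell in all 4 knockdown libraries, from 54.3 ± 3.25 to 21.7 ± 1.19 CPM (SD, n = 4), a log2 fold change of -1.32 (SE 0.13, edgeR quasi-likelihood adjusted p = 0.000688). Levels are TMM-normalized read counts relative to library size (CPM). Each library held 31994838 to 40124813 counts in all, of which 31010859 to 38932384 were gene counts. Library sizes left out spike-in reads and genes below the filter. Added spike-in RNA took 2.972% to 9.796% of the counts in Sirt6-Ctrl and 2.15% to 2.468% in Sirt6-KD, highest in S1 and S2 (exact two-sided permutation p = 0.0286, the smallest 4 against 4 allows). Scaling the libraries by spike-in reads instead moved the median change across the transcriptome from 0.013 to 0.94 on the log2 scale, so changes under that scaling are given relative to this median. Of 10 NP and chondrocyte-like markers 7 were found, *Krt18*, *Krt19* and *Col2a1* not among them. These 7 summed to 173 to 250 CPM in Sirt6-Ctrl and 144 to 158 CPM in Sirt6-KD. *Car3* and *Krt8* were called lower, 2 of 7 beside 9.88% of all genes. At an unadjusted edgeR p below 0.05, 4 of the 7 were lower and none was higher. The share of all genes past this unadjusted limit was not counted, so such counts of markers are a description only. Of 10 leukocyte markers 3 were found (*Cd68*, *Cd14* and *Csf1r*), summing to 12.5 to 31.1 CPM and 15.8 to 25.2 CPM, and none of the 3 had an unadjusted edgeR p below 0.05. Of 6 endothelial markers only *Tek* was found, at 0 to 21 reads per library. Of 6 annulus and tendon fibroblast markers 5 were found, summing to 13600 to 26500 CPM and 8390 to 18300 CPM, mostly from *Col1a1*; 2 of them were lower at an unadjusted edgeR p below 0.05 and none was called. The part of cell composition in the results was not tested, and in bulk RNA more expressing cells and more RNA per cell cannot be told apart.

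A gene was called at an edgeR adjusted p below 0.05 over all genes with a fold change above 1.5. *Tnfaip3*, *Nfkb1* and *Nfkbia* rose in Sirt6-KD cells, to 2.82, 1.71 and 1.64 times their control mean. These 3 of 10 members (30%) compare with 8.25% of all genes called higher. The members were chosen with earlier results of these data known, so such shares are a description and not a test. No member was called lower, against 9.88% of all genes, and none did so at an unadjusted edgeR p below 0.05, or by DESeq2 or limma-voom. The same 3 members were those whose libraries did not overlap between groups with Sirt6-KD above, a pattern found in 15.2% of all genes, and none lay wholly below the controls, which 15.1% of all genes did. The members had a median log2 fold change of 0.26, against 0.013 for the transcriptome, with 6 members positive and 4 negative; with single libraries left out it ran from 0.088 (without S2) to 0.32 (without S1).

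**Figure D1:**
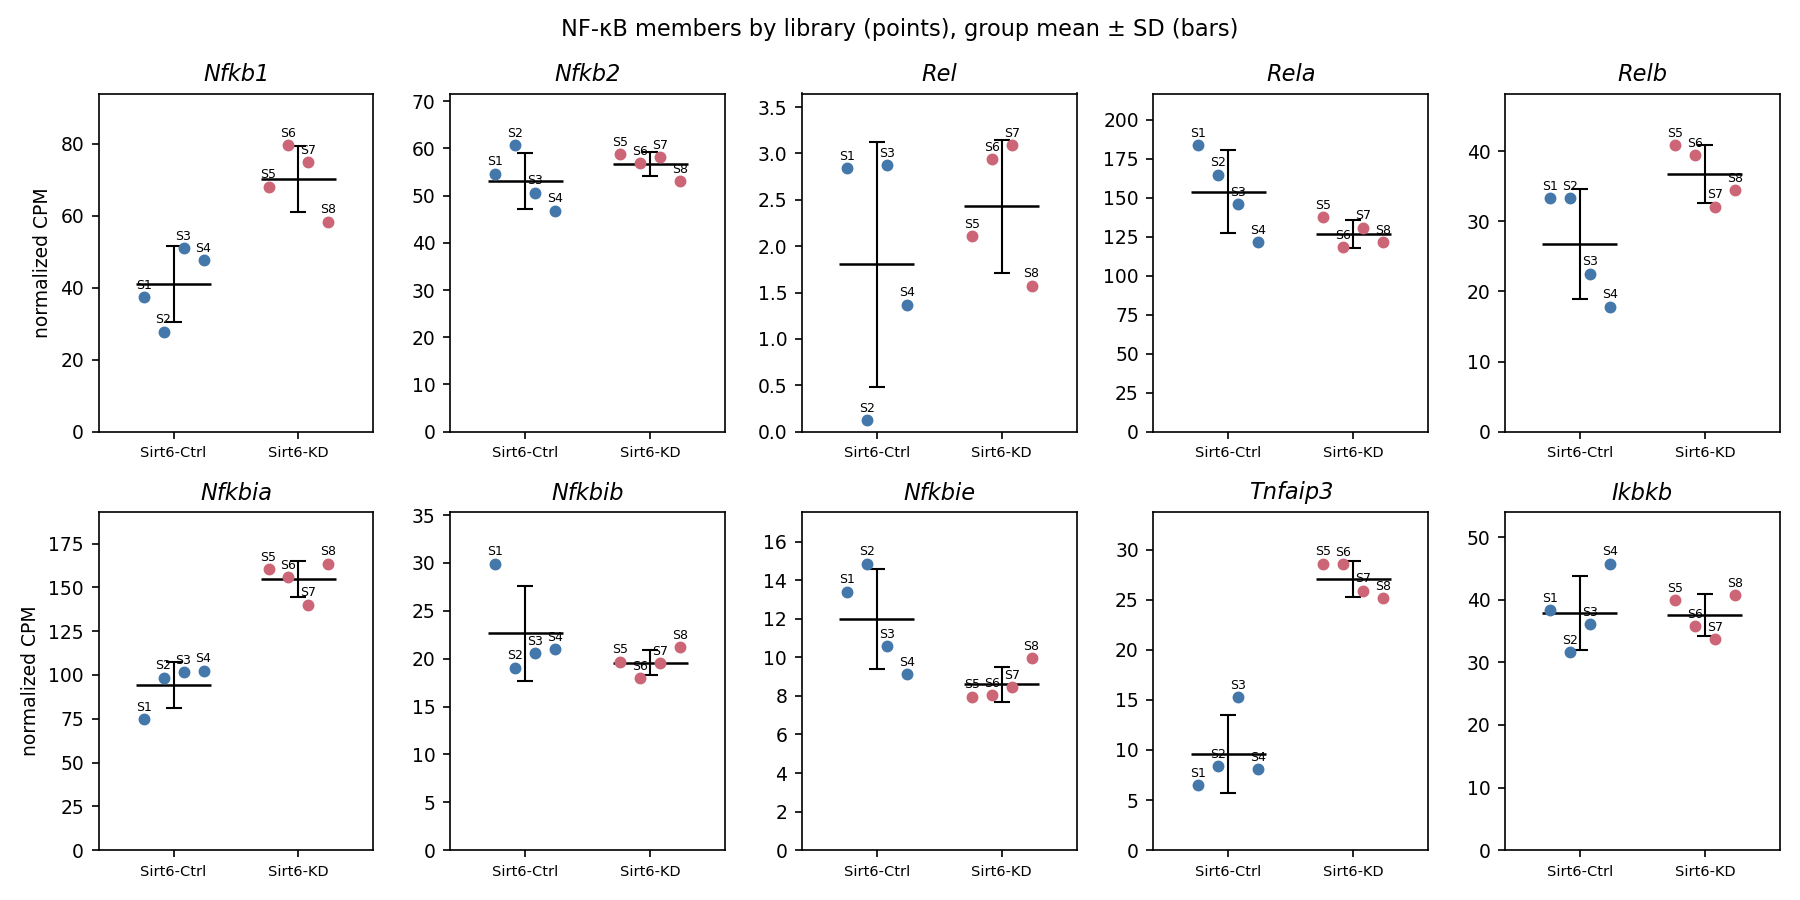
Normalized CPM (linear axes from 0) of each of the 10 genes in the 4 Sirt6-Ctrl libraries S1 to S4 and the 4 Sirt6-KD libraries S5 to S8; points are libraries and bars are the mean ± SD. Groups separate fully for *Nfkb1*, *Nfkbia* and *Tnfaip3* and overlap for the other 7 genes.

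Among the subunits, *Nfkb1* (ENSRNOG00000023258), which encodes a precursor processed into a DNA-binding partner of RELA, read 37.3, 27.8, 50.9 and 47.7 CPM in S1 to S4 and 68.1, 79.6, 74.8 and 58.4 CPM in S5 to S8. The lowest knockdown library lay above the highest control. Its log2 fold change was 0.78 (SE 0.20, 95% interval 0.34 to 1.22, edgeR adjusted p = 0.0214). This call rested on the full set of libraries: it was lost when S1, S5, S6 or S7 was left out (log2 fold change 0.62 to 0.90 over all 8 omissions, edgeR adjusted p 0.0087 to 0.0682). Without both S1 and S2 it was 0.51 (edgeR adjusted p = 0.0535).

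*Relb* (ENSRNOG00000033235), the transactivating subunit of the non-canonical branch, read 33.3, 33.3, 22.5 and 17.8 CPM in S1 to S4. In S5 to S8 it read 40.9, 39.4, 32.1 and 34.4 CPM. S7 lay just under S1 and S2, so the groups overlapped, and the log2 fold change of 0.46 was not called (SE 0.22, 95% interval -0.027 to 0.94, edgeR adjusted p = 0.159). Without S1 and S2, which carried the highest spike-in shares, the difference was 0.87 and was called (SE 0.17, edgeR adjusted p = 0.0166). *Relb* gained a call there, while *Nfkb1* lost it.

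*Nfkb2* (ENSRNOG00000019311), whose precursor both restrains and pairs with RELB, read 54.6, 60.7, 50.6 and 46.8 CPM against 58.8, 56.9, 58.2 and 53.1 CPM. The groups overlapped, and the log2 difference of 0.09 had an interval of -0.19 to 0.38 (edgeR adjusted p = 0.647).

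*Rela* (ENSRNOG00000030888), the main transactivating subunit of the canonical pathway, read 184, 165, 146 and 122 CPM in S1 to S4 and 138, 118, 131 and 122 CPM in S5 to S8. The controls spread more widely than the knockdown libraries, which lay within or just under the control range. Its log2 difference was -0.28 (SE 0.14, 95% interval -0.59 to 0.037, edgeR adjusted p = 0.187), and -0.07 without S1 and S2. *Rel* (ENSRNOG00000054437), the subunit best known from lymphocytes, had few reads, with 97, 4, 93 and 54 reads in S1 to S4 and 69, 93, 113 and 51 reads in S5 to S8. Its interval of -1.29 to 2.15 on the log2 scale was too wide to set a direction.

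*Nfkbia* (ENSRNOG00000007390), which encodes IκBα, the inhibitor resynthesized soon after NF-κB activation, read 74.7, 98.4, 102 and 103 CPM in S1 to S4. In S5 to S8 it read 160, 156, 140 and 164 CPM. Every knockdown library lay above every control, from 94.3 ± 13.2 to 155 ± 10.4 CPM (SD, n = 4). The log2 fold change was 0.72 (SE 0.13, 95% interval 0.42 to 1.01, edgeR adjusted p = 0.00687), and the call held in all 8 single-library omissions (0.60 to 0.75).

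The other classical IκB inhibitors were not called. *Nfkbib* (ENSRNOG00000020063), which encodes IκBβ, read 29.9, 19.1, 20.6 and 21.0 CPM against 19.7, 18.0, 19.5 and 21.2 CPM, with S1 alone standing high. *Nfkbie* (ENSRNOG00000019907), which encodes IκBε, read 13.4, 14.9, 10.6 and 9.13 CPM against 7.97, 8.03, 8.45 and 9.95 CPM, and S8 reached into the control range. Their log2 differences were -0.21 and -0.48 (95% intervals -0.63 to 0.21 and -1.02 to 0.060, edgeR adjusted p = 0.469 and 0.184). The differences between the inhibitors were not tested.

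*Tnfaip3* (ENSRNOG00000049517), a ubiquitin-editing enzyme that switches off signalling upstream of IKK, had the largest fold change of the 10 members. It read 6.50, 8.41, 15.3 and 8.09 CPM in S1 to S4 and 28.6, 28.5, 25.9 and 25.1 CPM in S5 to S8. The lowest knockdown library stood well above S3, the highest control. The mean went from 9.57 ± 3.89 to 27.0 ± 1.79 CPM (SD, n = 4), a log2 fold change of 1.498 (SE 0.27, 95% interval 0.90 to 2.09, edgeR adjusted p = 0.00613), which lay between 1.34 and 1.82 over the 8 omissions, all called. *Ikbkb* (ENSRNOG00000019073), the IKK subunit that phosphorylates IκB, read 38.3, 31.6, 36.1 and 45.8 CPM against 39.9, 35.8, 33.7 and 40.8 CPM. Its groups overlapped fully, with a log2 difference of -0.015 (95% interval -0.36 to 0.33, edgeR adjusted p = 0.958).

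**Figure D2:**
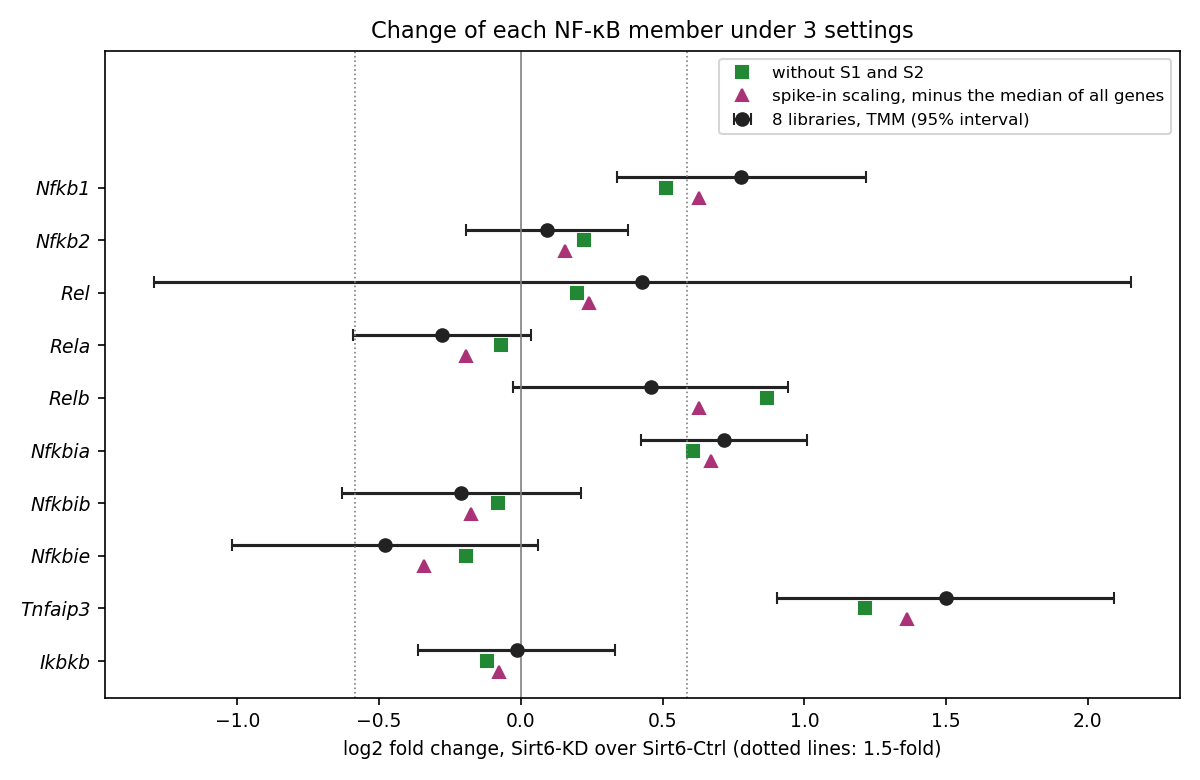
Log2 fold change of each member, Sirt6-KD over Sirt6-Ctrl: circles show all 8 libraries with 95% intervals, squares the fit without S1 and S2, and triangles spike-in scaling minus the median of all genes; dotted lines mark 1.5-fold. *Tnfaip3* stayed highest in the 3 settings, and *Relb* moved from 0.46 to 0.87 without S1 and S2.

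With spike-in scaling no member was called by edgeR (adjusted p 0.063 for *Tnfaip3*, 0.0754 for *Nfkbia* and 0.0859 for *Nfkb1*). Relative to the median gene the changes were 1.36 for *Tnfaip3*, 0.67 for *Nfkbia*, 0.63 for *Nfkb1* and 0.63 for *Relb*. *Rela*, *Nfkbib*, *Nfkbie* and *Ikbkb*, all negative with TMM, had positive values of their own under this scaling. They lay at -0.19, -0.18, -0.34 and -0.078 relative to the median gene. Subtracting the median takes out the shift common to all genes, so an unchanged sign there is no separate check of direction. Within Sirt6-Ctrl, S1 and S2 stood above S3 and S4 for *Nfkb2*, *Rela*, *Relb* and *Nfkbie* and below them for *Nfkb1* and *Nfkbia*. The part of the spike-in share in these differences was not tested.

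The spread between libraries was smaller in Sirt6-KD for all 10 members. Their median coefficient of variation was 21.8% in Sirt6-Ctrl and 7.95% in Sirt6-KD, and over all genes it was 31.7% and 14.7%.

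Ratios within a library do not depend on the scaling, so each member was also set against *Rela*, a choice made with the values known. *Nfkbia* stood at 40.7, 59.7, 69.7 and 84.4 reads per 100 *Rela* reads in S1 to S4 and at 116, 132, 107 and 135 in S5 to S8. *Tnfaip3* stood at 3.54, 5.11, 10.5 and 6.66 and then at 20.8, 24.1, 19.8 and 20.7. The *Nfkb1* ratios were 16.9 to 39.3 in Sirt6-Ctrl and 48.0 to 67.4 in Sirt6-KD. Against *Rela*, *Relb* (14.7 to 20.2 and 24.6 to 33.4) and *Nfkb2* (29.7 to 38.5 and 42.7 to 48.2) also separated, which their CPM did not. In all, 5 of the 9 other members were higher in every Sirt6-KD library, against 20.7% of all genes. With *Ikbkb* as the reference, 3 of 9 were (*Nfkb1*, *Nfkbia* and *Tnfaip3*), against 12.3% of all genes, so the separation of *Relb* and *Nfkb2* was seen with *Rela* and not with *Ikbkb*. These ratios show unequal change and not which gene of a pair moved.

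**Figure D3:**
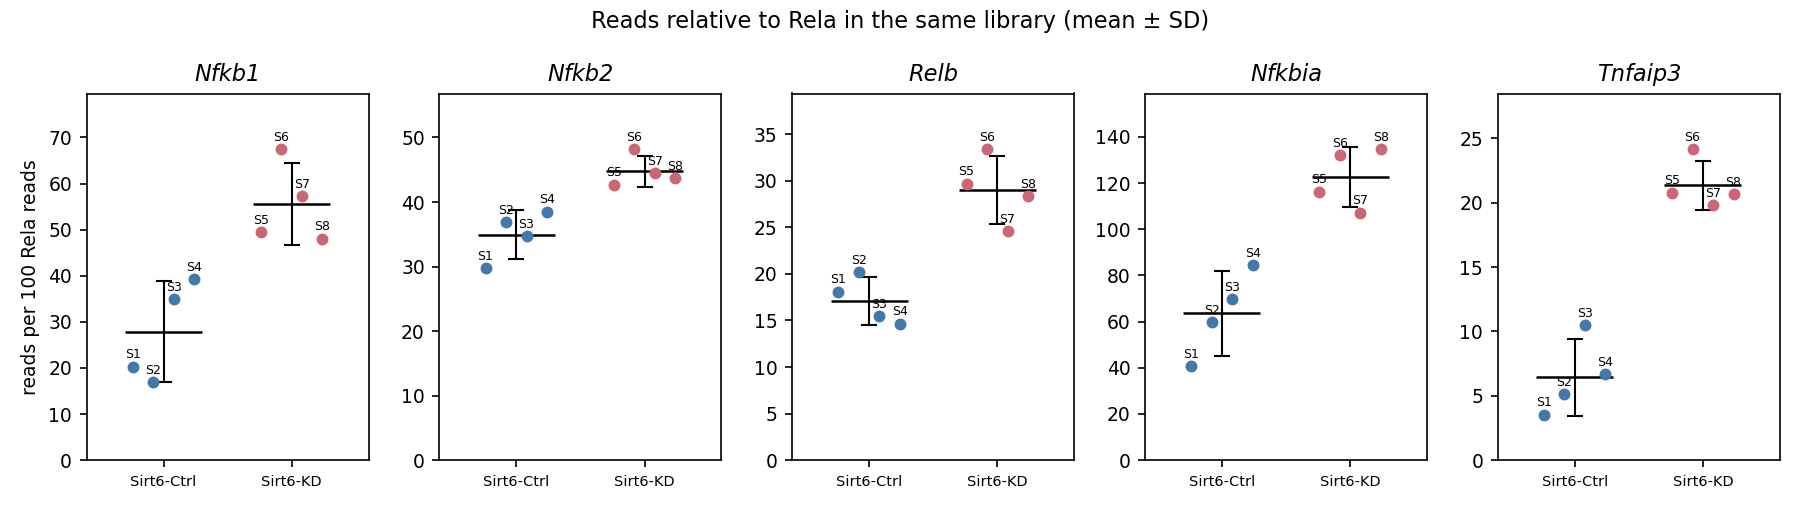
Reads per 100 *Rela* reads in the same library (linear axes from 0) for 5 members; points are libraries S1 to S8 and bars are the mean ± SD of 4 libraries. For each of the 5 genes, all Sirt6-KD libraries lie above all Sirt6-Ctrl libraries.

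The pathway around these members was read from 4 lists with 95 genes, of which 83 were found by symbol and 81 tested. Of these, 18 rose (22.2%, against 8.25% of all genes) and 3 fell (3.7%, against 9.88%). The lists were chosen with earlier results of these data known, so these shares are a description and not a test of the pathway. Of the 28 known NF-κB target genes tested, 12 rose, beside 8.25% of all genes, and the others were not called by edgeR. None of the targets was called lower by edgeR, DESeq2 or limma-voom or had a lower level at an unadjusted edgeR p below 0.05. The median log2 fold change of the targets was 0.78. *Lif*, a cytokine of the IL-6 family, rose by 2.03 on the log2 scale (edgeR adjusted p = 0.00223). *Cxcl1* and *Cxcl2*, both neutrophil chemokines, rose by 1.33 and 1.49, and *Icam1*, a leukocyte adhesion molecule, by 0.81 (edgeR adjusted p = 0.00233, 0.00444 and 0.00343). *Vcam1*, *Ccl5* and *Nos2* were not found by symbol and were not analysed here, and *Csf2* and *Bcl2a1* fell below the count filter.

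Among 17 other inhibitors and atypical IκB proteins, 3 rose and 1 fell, beside 8.25% of all genes called higher and 9.88% called lower. The median log2 fold change of this list was 0.38, but 0.14 without S1, 0.19 without S3 and 0.53 without S4. Those that rose were *Nfkbiz*, an inducible nuclear IκB protein (1.36), *Zc3h12a*, a ribonuclease that degrades cytokine transcripts (1.28), and *Irak3*, an inhibitory kinase-like protein of Toll-like receptor signalling (1.40, edgeR adjusted p = 0.00267, 0.00326 and 0.00559). *Nfkbil1* fell by 0.81 (edgeR adjusted p = 0.0328). *Tnip1*, a binding partner of the *Tnfaip3* product picked after its values were seen, had an edgeR adjusted p of 0.0121 but a log2 difference of 0.55, under the fold limit.

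Among 13 receptors and ligands, *Tlr2* (1.48) and *Il1r1* (1.67), receptors for bacterial lipoproteins and interleukin-1, rose (edgeR adjusted p = 0.00877 and 0.0286). These 2 of 13 stood beside 8.25% of all genes called higher, and the median of the list was 0.54. None was called lower by edgeR or limma-voom, 1 was by DESeq2, and 2 were lower at an unadjusted edgeR p below 0.05. The ligand genes *Tnf* and *Il1b* were among 7 of this list not found by symbol and not analysed here. Of the 23 kinases and adaptors that connect receptors to IKK, 6 were higher and 5 lower at an unadjusted edgeR p below 0.05. The share of all genes past that limit was not counted, so the unadjusted counts of both lists are a description only. Of the 23, only 1 was called higher and 2 lower, shares below those of all genes (8.25% and 9.88%). The median of these 23 was 0.031 and became 0.33 without S4. Of these *Rnf31*, the catalytic subunit of the linear ubiquitin ligase, rose by 1.02, *Sharpin*, another subunit of that ligase, fell by 0.64, and *Irak4*, a kinase of interleukin-1 and Toll-like receptors, fell by 0.90 (edgeR adjusted p = 0.0251, 0.0471 and 0.0244). Of the 13 genes named from the lists, 8 stayed called whichever single library was left out. The other 5, *Il1r1*, *Irak4*, *Rnf31*, *Sharpin* and *Nfkbil1*, lost their calls without any 1 of the Sirt6-KD libraries. Over all genes these omissions also cut the calls, from 1094 to between 466 and 720 higher and from 1309 to between 687 and 1063 lower. *Il1r1* was also lost without S2 (edgeR adjusted p 0.0123 to 0.0688 over the 8 omissions), *Irak4* without S1, and *Sharpin* and *Nfkbil1* without either. *Sharpin* was not called by limma-voom or without the filter on low counts either. Without both S1 and S2, 9 of the 13 were called, *Il1r1* among them, and *Irak4*, *Rnf31*, *Sharpin* and *Nfkbil1* were not. Under spike-in scaling only *Cxcl2* of the 13 was called. *Irak4*, *Sharpin* and *Nfkbil1* then had positive values of their own (0.26, 0.47 and 0.26). Relative to the median gene they lay at -0.69, -0.48 and -0.68.

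**Figure D4:**
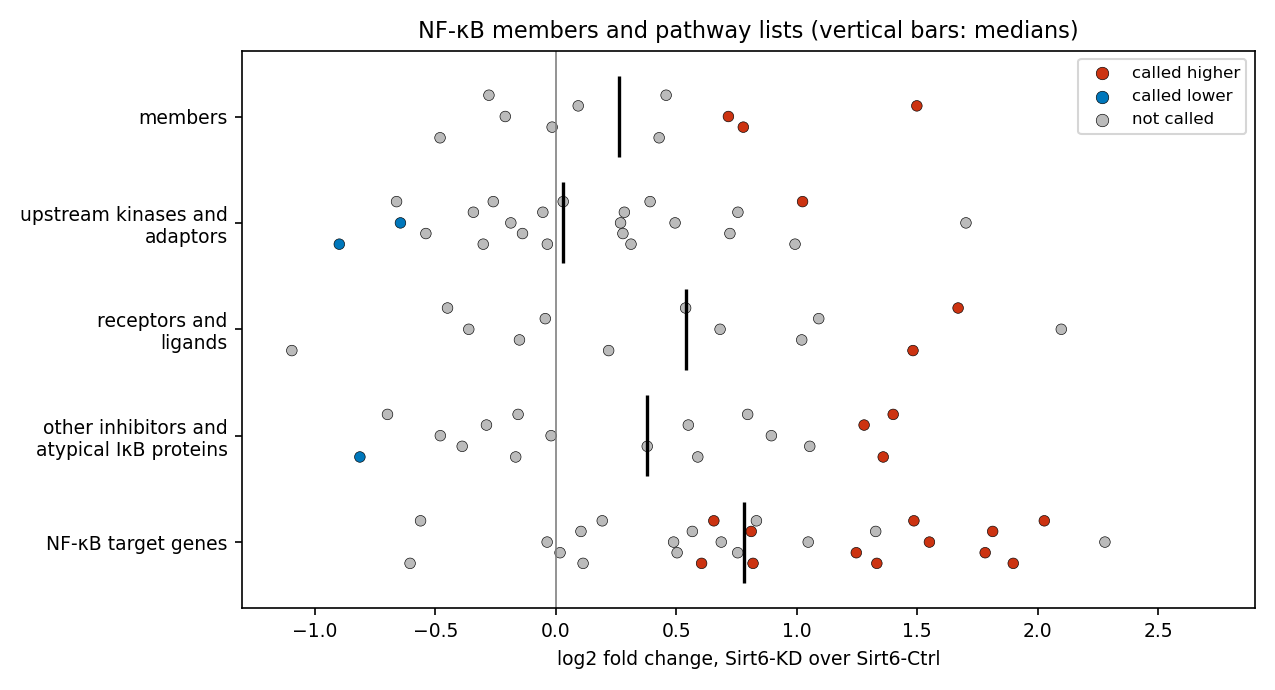
Log2 fold change, Sirt6-KD over Sirt6-Ctrl, of the 10 members and of the tested genes of the 4 pathway lists; each point is a gene, coloured by its call, and vertical bars are medians. The medians were 0.78 for the target genes, 0.54 for receptors and ligands, 0.38 for other inhibitors, 0.26 for the members and 0.031 for kinases and adaptors.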

How the data were processed

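Primary rat NP cells were sequenced as 4 Sirt6-Ctrl and 4 Sirt6-KD libraries, grouped by the genotype label. The deposited count table holds unnormalized whole-number counts for Ensembl genes and spike-ins in 32975 rows. A second deposited table holds normalized signal, which the authors made by dividing counts by a size factor, beside the log2 fold changes and p-values (raw and adjusted) of the authors' own comparison; only its gene names were used. The submitters' processing notes list Trimmomatic 0.36, STAR 2.5.2b, Subread 1.5.2, featureCounts, DESeq2 and Rnor 6.0; their settings and strandedness are not given in the sources used here.

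The 92 spike-in rows (2.15% to 9.796% of counts) name no gene and were left out of library sizes and tests. Of 32883 gene rows, filterByExpr kept 13253, of which 73 had no name. Gene names were given for 13612 rows, none with a summed count below 81. A gene not found by symbol may therefore have few reads or no name there, which was not checked. Counts were TMM-normalized and tested two-sided with edgeR 4.0.16 (glmQLFit, glmQLFTest) in R 4.3.3, unpaired, with Benjamini-Hochberg adjustment over all genes and SD over 4 libraries. Alternatives were DESeq2 1.42.0, limma-voom (limma 3.58.1), other scalings, filters and thresholds, and omitted libraries. The fit was tested on simulated data that gave both groups the same spread, so the unequal spread found here was not covered. SciPy 1.17.1 gave the exact permutation test and matplotlib 3.10.9 the figures. No pair of replicates agreed within sampling noise. The series describes cells of 4 rats, each knockdown with its own control, but no label ties a library to a rat, so the pairing could not be used and p-values measure only the spread between these libraries. A total of 3 counts equals 0.0761 to 0.0948 CPM.

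All members, *Sirt6*, and up to 4 called genes per direction and list, by smallest p, are named. The members and lists were chosen with earlier results of these data known. Start windows are from RefSeq, GRCr8.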

Additional observations from a re-analysis of the deposited data

Results flagged for a closer look

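In groups of 4 libraries, the gap of the highest or lowest library to its neighbour was compared with the range of the group. *Nfkbia* in Sirt6-Ctrl had S1 far below the other 3 libraries (gap over range 0.852). *Rnf31* in Sirt6-KD had S8 far below (0.847), and *Lif* in Sirt6-KD had S7 far above (0.833). Of 48 groups examined 3 passed the limit, and chance passes about 1 in 20.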

How the results depend on the processing

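Of 160 combinations of a member and an alternative, 143 kept direction and side of the threshold, 10 lost a call, 1 gained one (*Relb* without S1 and S2) and 6 changed sign, 4 of them under spike-in scaling. Of 16 alternatives *Tnfaip3* was called in 15, *Nfkbia* in 14 and *Nfkb1* in 9. Spike-in scaling raised the median gene to 0.94. This scaling gave *Rela* 0.75, *Nfkbib* 0.77, *Nfkbie* 0.60 and *Ikbkb* 0.87 (-0.19, -0.18, -0.34 and -0.078 relative to that median). It gave *Sirt6* -0.36 without a call (-1.31 relative), and left 0 members, 2 pathway genes higher and 0 lower, and 22 genes higher and 4 lower of all genes. The glmTreat test against 1.5-fold left 1 member (*Tnfaip3*), 6 pathway genes higher and 0 lower, and 91 genes higher and 182 lower. limma-voom called 1669 genes higher against 1094, and DESeq2 1598. Without S1 and S2, 717 genes were lower against 1309, and 0 pathway genes. Leaving out 1 library at a time, members called higher were 2 to 3, pathway genes higher 13 to 25 and lower 0 to 5, all genes higher 466 to 1794 and lower 687 to 1746, and *Ikbkb* was -0.10 to 0.057. The cause was not tested. No paired analysis was possible because the labels and columns carry no rat number shared between groups. The series describes each knockdown with its own control, so the unpaired p-values ignore a stated pairing.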
